A study of Paxillus involutus ATCC 200175 with 12 samples.

Results

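Of the 12214 array features measured in mycelium of Paxillus involutus, 92 had a mean level at least 0.4 lower with ammonium alone than in each other nutrient condition, while their means with glucose lay within 0.5 of the mean on organic matter alone (log2). Paxillus involutus is an ectomycorrhizal fungus, which lives on tree roots and trades soil nitrogen for plant sugar. The 92 features were chosen on the log2 group means by 4 conditions: a mean over 12 arrays of at least 6, an OM+N mean at least 0.4 below the mean of each other group, and OM+G and OM+N+G means that each differed from the OM mean by less than 0.5. The first condition left 11499 features. The distance from the OM+N mean up to the lowest of the other group means is called the dip below. Because the choice used the means of all 4 groups, every difference between groups given below for these features is a description of how they were chosen. Test calls are given later only as counts, and they are no independent evidence. Counts over all features stand beside them only for the main fit of the deposited values on all 12 arrays.

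The strain was ATCC 200175, grown without a plant host on glass beads for 9 days in a defined medium, and deprived of nitrogen for 24 h. An extract of maize compost in hot water, freed of particles above 0.2 um and of molecules below 10 kDa, was then added for 7 days. The groups were the extract alone (OM) and the extract plus glucose (OM+G), plus ammonium (OM+N) or plus both (OM+N+G), with 3 arrays each on 1 slide. The design text mentions separate cultures, taken here to mean 1 culture for each array, and no dose of either nutrient was found in the labels. Each group occupied its own run of neighbouring subarrays, so nutrient and position on the slide cannot be told apart.

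Ammonium is a nitrogen source that many fungi use in preference to others. When it is plentiful, fungi commonly shut down genes for taking up and degrading other nitrogen sources, a response known as nitrogen catabolite repression. Glucose acts through a separate response, carbon catabolite repression, and turning ammonium into amino acids needs carbon skeletons that sugar provides. Fungi that decompose litter for its nitrogen therefore face both signals at once, and the study's design crosses them. The features carry running numbers only: none of the 12214 matched an entry among the 18033 genes of the reference table for this strain's genome assembly. No function or sequence is therefore given here, and how many of the 92 belong to nitrogen uptake or nitrogen control was not analysed.

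Whether most of the 92 features met the rule hung on a single array, OM+N replicate 1, which is described first. Many results below rest on it in part. OM+N replicate 1 was the lowest OM+N array for 82 of the 92 features, against 26.4% of all features. For the remaining 10 the lowest was replicate 3, and for none was it replicate 2. OM+N replicate 1 lay below all 9 arrays of the other groups for all 92 features (20.1% of all features). OM+N replicate 2 did so for 60 (12.5% of all features) and OM+N replicate 3 for 78 (16% of all features). Relative to the OM mean, the median of the 92 features stood at -0.99 in OM+N replicate 1, at -0.24 in replicate 2 and at -0.40 in replicate 3 (log2). All 3 OM+N arrays were thus below OM in the median, and replicate 1 was the farthest from it.

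A second array bore on the OM side of the comparison. OM replicate 2 was the highest OM array for 88 of the 92 features, against 35% of all features, and it exceeded the mean of the other OM arrays for all 92, by a median of 0.32 (log2, range 0.01 to 0.77). The same difference had a median of -0.04 over the 11499 features above the floor of 6. The median of the 92 features relative to their OM mean was -0.03 in OM replicate 1, 0.21 in replicate 2 and -0.17 in replicate 3. In the OM+G arrays this median was 0.32, 0.29 and 0.33, and in the arrays with both nutrients 0.23, 0.23 and 0.20. The arrays with glucose therefore sat close to OM replicate 2 and above the other OM arrays. Array medians over all features lay between 11.74 and 11.78, which RMA in its usual form fixes, and the random-sequence control lay between 3.66 and 3.80, with OM replicate 2 the highest.

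**Figure D1:**
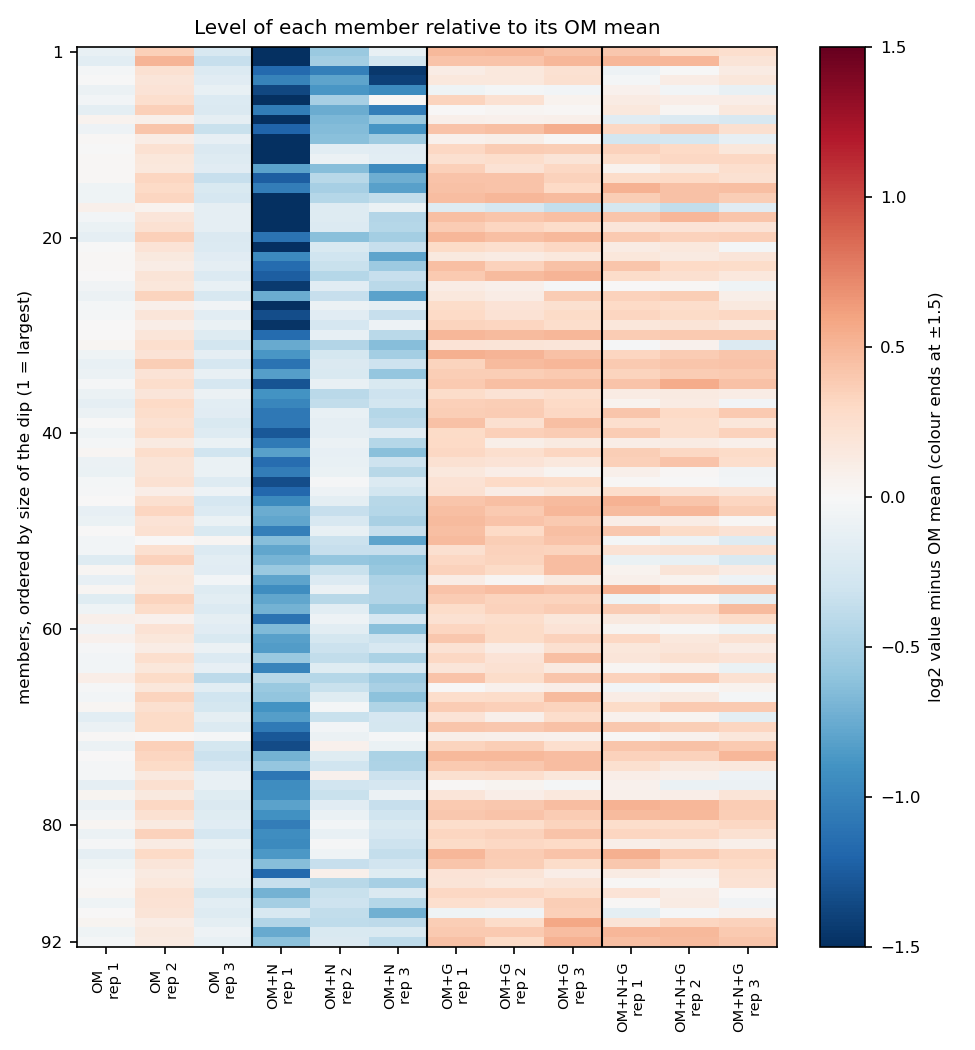
Log2 value of each of the 92 features in each of the 12 arrays, minus that feature's mean in OM, with features from top to bottom in order of the size of the dip and arrays grouped by condition (blue lower, red higher, colours end at 1.5 in either direction). OM+N replicate 1 is the darkest blue column, OM+N replicates 2 and 3 are paler, and OM replicate 2 resembles the columns with glucose.

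With all arrays, the change from OM to OM+N ranged from -1.35 to -0.40 with a median of -0.52 (log2), against a median of 0.03 over all 12214 features. Without OM+N replicate 1 the median of the same 92 features was -0.32, and all 92 still had a mean below OM (range -1.24 to -0.02), against a median of 0.02 over all features. Of the 92, 25 then lay at least 0.4 below OM. The rule itself, applied to the remaining 11 arrays, kept 23 features, all of them among the 92. The 69 features that it no longer held had a median change of -0.27 from OM in OM+N replicates 2 and 3, against -0.50 with replicate 1 included. The 23 that it kept had -0.57 without replicate 1 and -0.68 with it. Leaving out OM replicate 2 in place of OM+N replicate 1 left 36 features, 35 of them among the 92, and leaving out both arrays left 12, of which 11 were among the 92. With both left out, the median change of the 92 features from OM was -0.20. For most of the 92 the limit of 0.4 was thus met only with these arrays included.

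**Figure D2:**
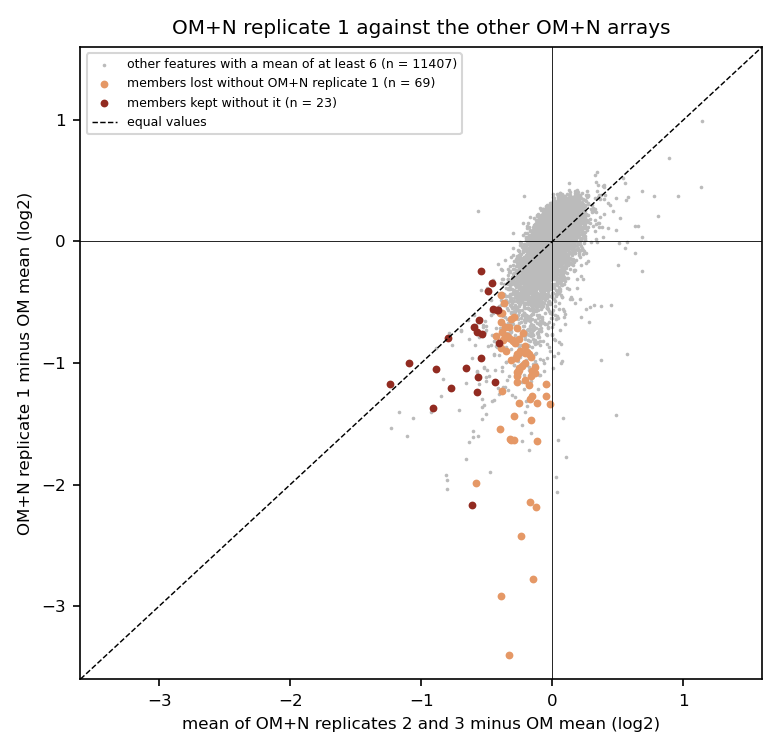
For each feature with a mean of at least 6, the difference from the OM mean in OM+N replicate 1 (vertical axis, log2) against that in the mean of OM+N replicates 2 and 3 (horizontal axis, log2); the dashed line marks equal values. The 69 features lost without replicate 1 (orange) have a median of -0.27 on the horizontal axis and the 23 kept (dark red) a median of -0.57, and the points farthest below the line are mostly orange.

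The features low in every OM+N array were led by a group whose OM, OM+G and OM+N+G means were almost the same. paxillus_13579 stood at 12.16, 12.31 and 11.88 in the OM+N arrays. Its OM arrays stood at 13.30, 13.56 and 13.13. It lay between 13.44 and 13.56 in OM+G and between 13.25 and 13.45 in OM+N+G. Its groups did not overlap: the highest OM+N array was 0.82 below the lowest of the other 9 arrays, the widest gap of all 92 features. Its mean was 12.12 ± 0.21 in OM+N and 13.33 ± 0.21 in OM (log2, SD, n = 3), a difference of -1.21 (SE 0.12), or 2.32-fold. With OM+N replicate 1 left out the difference was -1.24, so that array did not set it.

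paxillus_1337 followed the same course at almost the same level, with 12.20, 12.42 and 11.80 in the OM+N arrays and 13.20, 13.38 and 13.03 in the OM arrays. It lay between 13.36 and 13.44 in OM+G and between 13.17 and 13.38 in OM+N+G. Its OM+N mean was 1.06 below OM on the log2 scale (SE 0.13, 2.09-fold). The 2 features differed by at most 0.18 on any array and correlated with Pearson's r of 0.99 over the 12 arrays, which share hybridisation and normalization. The rule chose both for a similar profile over these arrays, so a high r follows largely from the choice. Other pairs of the set were as alike: paxillus_5130 and paxillus_7492 also had an r of 0.99 and differed by at most 0.14. Their running numbers are far apart. Whether the probes of both can bind the same transcripts was not tested.

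paxillus_887 had 12.17, 12.67 and 12.59 in the OM+N arrays, against 13.45, 13.74 and 13.42 in OM. OM+G lay between 13.48 and 13.51, and OM+N+G between 13.43 and 13.60. The gap between OM+N and all other arrays was 0.76, and the OM+N mean was 1.06 below OM (SE 0.12). Without OM+N replicate 1, its lowest array, OM+N lay 0.87 below the lowest other group mean, compared with 1.02 with it. paxillus_8896 had 11.54, 11.85 and 11.55 in OM+N, and 12.45, 12.95 and 12.37 in OM. Its 3 OM+G arrays lay between 12.60 and 12.61. The gap to the other 9 arrays was 0.52. These 4 features and paxillus_1487 (12.29, 12.45 and 12.13 in OM+N; 13.10, 13.24 and 12.91 in OM) had the largest dips left without OM+N replicate 1, between 0.80 and 1.24.

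The other features of the set that met the rule with both OM+N replicate 1 and OM replicate 2 left out were paxillus_2315, paxillus_6467, paxillus_8551, paxillus_8287, paxillus_3883 and paxillus_11259. Together with the 5 above these are the 11 that remained, with dips between 0.41 and 1.21 over all arrays. In all 11 the OM+N arrays lay below every other array, as in 4.99% of all features. The same held for all 23 that remained without OM+N replicate 1, and the rule favours such separation. paxillus_2315 is the one of the 11 in which OM+N replicate 1 stood far off, at 11.96 against 13.46 and 13.57. paxillus_11259 is the dimmest of the 92, with a mean of 11.00 over all arrays. It had 10.86, 10.74 and 10.38 in OM+N against 11.11, 11.29 and 10.91 in OM, so that its groups were separated by only 0.05. The feature that entered the rule when both arrays were left out, paxillus_7265, had an OM+N mean of 12.33. Its means were 13.52 in OM, 13.47 with glucose (OM+G) and 13.01 with both nutrients. With all arrays its OM+N+G mean lay too far below OM for the rule.

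A further 12 of the 23 features remained without OM+N replicate 1 alone. paxillus_5117 had the largest dip among them (0.92), with 11.29, 11.84 and 11.60 in OM+N, against 12.41, 12.90 and 12.16 in OM. Its OM+G arrays stood between 12.92 and 13.04, and OM replicate 2 was the only OM array close to that level. paxillus_8947, paxillus_7280, paxillus_8426 and paxillus_6479 had dips between 0.68 and 0.80 and, like paxillus_5117, OM+G and OM+N+G means at least 0.25 above OM. The others were paxillus_389, paxillus_5880, paxillus_9467, paxillus_7082, paxillus_9332, paxillus_6416 and paxillus_6354. paxillus_5880 had the tightest OM+N arrays of these, at 10.84, 10.95 and 10.93, below OM values of 11.35, 11.88 and 11.38.

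The 2 largest dips of the set belonged to features of another kind, in which OM+N replicate 1 lay far from the other OM+N arrays. paxillus_12751 had 11.16 in OM+N replicate 1 but 14.01 and 14.46 in replicates 2 and 3. Its OM arrays stood at 14.45, 14.92 and 14.32, so OM+N replicate 3 fell inside the range of OM. Its OM+N mean of 13.21 ± 1.79 (SD, n = 3) was 1.35 below OM with an SE of 0.59. That SE draws on a spread shared by all 4 groups, which the steadier arrays with glucose lower. paxillus_12752, the next running number, had 10.38, 12.79 and 13.02 in OM+N and 13.14, 13.81 and 12.95 in OM. Without replicate 1 the dips of these features shrank from 1.35 and 1.24 to 0.33 and 0.39.

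paxillus_12736 was similar, with 12.32, 14.24 and 14.75 in OM+N, against 14.69, 14.99 and 14.53 in OM. So were paxillus_12709 (11.80, 13.78 and 13.77 in OM+N) and paxillus_16 (12.41, 14.50 and 14.43). Their dips without replicate 1 were 0.24, 0.17 and 0.13. In paxillus_11777 the dip vanished: its OM+N arrays stood at 11.13, 13.71 and 13.80, whereas OM+G and OM+N+G lay between 13.54 and 13.74. This feature was the only one of the 92 with both glucose means at least 0.25 below OM. In all, OM+N replicate 1 was at least 1 log2 unit below the mean of the other OM+N arrays in 23 features, and 1 of these, paxillus_2315, met the rule without it.

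**Figure D3:**
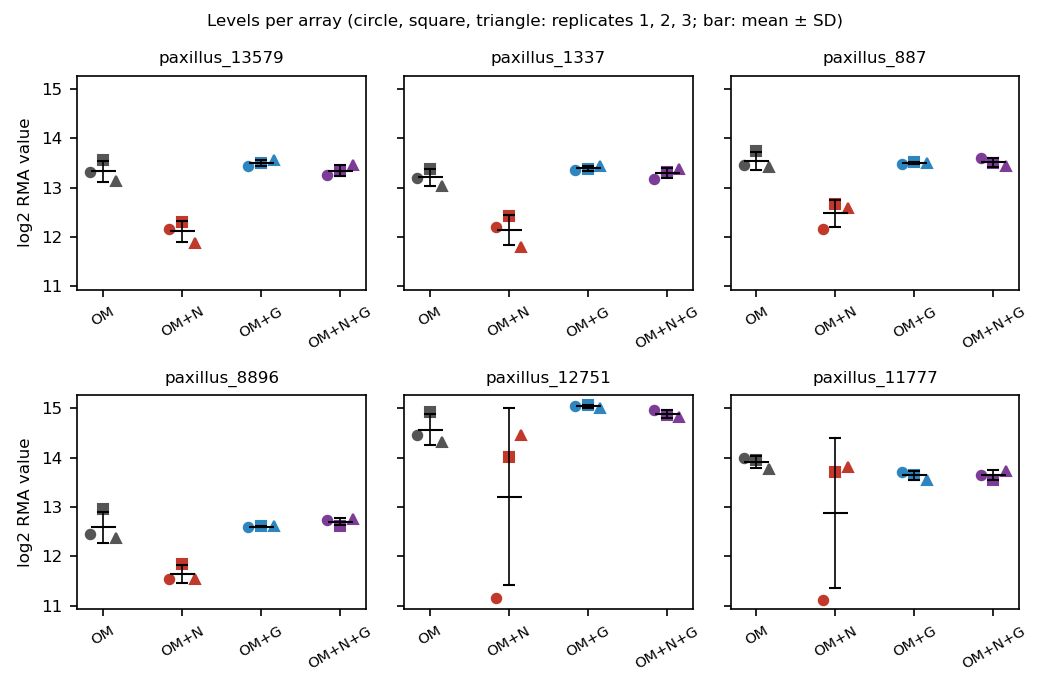
Log2 level per array of 6 features in the 4 conditions, with a horizontal bar and whiskers for mean ± SD (n = 3). In paxillus_13579, paxillus_1337, paxillus_887 and paxillus_8896 all OM+N arrays lie below every other array, whereas in paxillus_12751 and paxillus_11777 replicate 1 (circle) lies more than 2 log2 units below both other OM+N arrays.

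Spread within groups, which the rule did not use, was unevenly distributed over the conditions. The median SD of the 92 features was 0.41 in OM+N and 0.20 in OM. With glucose it was 0.05 (OM+G) and 0.07 (OM+N+G). Over the 11499 features the corresponding medians were 0.08, 0.10, 0.06 and 0.07. The 92 were therefore about as steady as other features with glucose present, and more variable without it. The SD in OM+N reached 1.79 in paxillus_12751, 1.52 in paxillus_11777 and 1.46 in paxillus_12752, and was lowest, at 0.03, in paxillus_497. A rule on means of 3 arrays can be met through 1 low array, and no test of this difference in spread is given.

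The 92 features were bright. Their mean over all arrays had a median of 13.36 (range 11.00 to 14.74), against 11.83 for the 11499 features, and 87 of them belonged to the brightest 25% of these. paxillus_13101, paxillus_12736 and paxillus_16 were the brightest and paxillus_11259, paxillus_5880 and paxillus_497 the dimmest. All 92 were summarised from 10 probes. OM+N replicate 1 lay far below the other OM+N arrays mainly among bright features. It was at least 0.5 lower than their mean in 271 of 2875 features of the brightest 25% (9.43%). The same held for 28 of 2874 in the next 25% (0.974%), for 13 of 2875 in the third (0.452%) and for 2 of 2875 in the dimmest (0.0696%). The median difference of OM+N replicate 1 from them was -0.03 in the brightest 25% and 0.09 in the dimmest, where it was thus slightly higher. Its deviation also ran opposite to the glucose response. Over the 11499 features, the difference of OM+N replicate 1 from the other OM+N arrays had a Pearson's r of -0.52 with OM+G minus OM, 2 measures that share no array. OM replicate 2 showed the reverse: its difference from the other OM arrays had an r of 0.81 with OM+N+G minus OM+N. These correlations run across features of the same slide and are descriptions only. The part that brightness or these 2 arrays play in the pattern was not tested beyond the values without them, and neither was whether the cultures behind these arrays stand for their labelled groups.

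On the glucose side, the 92 features were not level but tended upward, within the bounds of the rule. The OM+G mean was above OM in 90 of 92, by a median of 0.32 (range -0.27 to 0.49), and the OM+N+G mean was above OM in 77, by a median of 0.22 (range -0.27 to 0.48). Adding ammonium to glucose changed the medians little: OM+N+G minus OM+G had a median of -0.08 (range -0.52 to 0.15), and 69 of the 92 were on the lower side. Adding glucose to ammonium gave a median difference of 0.82 (range 0.41 to 1.67). Over all 12214 features these medians were -0.03, -0.02, -0.01 and -0.06. The OM+G mean lay above OM in 46.4% of the 11499 features above the floor. Among the 2875 brightest of these, which hold 87 of the 92, it did so in 62.2%, and the median OM+G minus OM was 0.16. Bright features in general thus also tended upward with glucose, by less. Shares over all features are not given for the counts of 77 and 69.

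Sorted by their glucose means, 28 features were level, with OM+G and OM+N+G both within 0.25 of OM. In 38 both were at least 0.25 above OM, in 1 both were below, and 25 were mixed. paxillus_13579, paxillus_1337 and paxillus_887 had the largest dips of the level features, paxillus_12751, paxillus_12752 and paxillus_5117 of those above OM, and paxillus_16, paxillus_1487 and paxillus_5961 of the mixed. Of the level features 10 met the rule without OM+N replicate 1, compared with 7 of those above OM and 6 of the mixed. The 38 features above OM are lowest with ammonium alone and highest with glucose, so their OM level lies between, at a median of 0.41 below OM+G.

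Across all 12214 features, the ammonium contrast without glucose was called lower at a Benjamini-Hochberg adjusted p under 0.05 by limma, a linear model that shares information on spread between features, for 30 features (0.246%). Of the 92, 11 were among them. They were paxillus_13579, paxillus_1337, paxillus_887, paxillus_8896, paxillus_5117, paxillus_1487, paxillus_7280, paxillus_3883, paxillus_5880, paxillus_9467 and paxillus_6416, and each of them also met the rule without OM+N replicate 1. Neither paxillus_12751 nor paxillus_12752, with the largest dips, was called. The count depended on the arrays: it was 5 without OM+N replicate 3, 23 without OM replicate 3, 27 without OM+N replicate 2, and 6 or 7 without any other single array. When the OM and OM+N arrays were fitted alone it was 1. Counts over all features are not given for these alternative fits. The glucose contrast with ammonium was called higher for 89 of the 92 (32.7% of all features); paxillus_11777, paxillus_8102 and paxillus_4181 were the exceptions. The glucose contrast without ammonium was called higher for 32 (29.8% of all features) and the ammonium contrast with glucose was called lower for 2, paxillus_3883 and paxillus_5880 (1.92% of all features). The interaction, by which the ammonium change was more positive with glucose than without, was called for 5 (0.377% of all features). The rule fixed or bounded each of these contrasts, so nothing is read from the counts.

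The arrays of the groups did not overlap in the ammonium contrast for 53 of the 92 features: all 3 OM+N arrays were below all 3 OM arrays, as in 6.31% of all features. In the same number they were also below all 9 other arrays (4.99% of all features), by a median gap of 0.14. The 3 OM+N arrays were below all OM+N+G arrays in 88 (33.7% of all features) and below all OM+G arrays in 91 (33.3%). The rule chose for these differences too. Where OM+N overlapped any other group, it thus always overlapped OM.

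The only values not used in a choice of features come from applying the rule to 2 replicates of each group and reading the replicate left out. Without the arrays numbered 1, the rule chose 32 features. OM+N was the lowest of the 4 unused arrays for all 32, where this holds for 27.7% of all features, and 30 of them had a dip of at least 0.4 there. Their median difference from OM was -0.52 in the arrays used and -0.81 in the unused ones. Without the arrays numbered 2, it chose 64. OM+N was lowest in the unused arrays for 62 (31.5% of all features), but the median difference from OM shrank from -0.61 to -0.36 and 21 kept a dip of at least 0.4.

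Without the arrays numbered 3, it chose 219 features, and OM+N was lowest in the unused arrays for 160 of them (22.3% of all features). The median difference from OM dropped in size from -0.57 to -0.12, and 19 kept a dip of at least 0.4. The unused arrays thus had OM+N lowest for most of the chosen features in every case, which is a description only. They kept the size only where OM+N replicate 1, the far array, was the one read. They lost most of it where OM+N replicate 1 and OM replicate 2 were both used to choose. The shares over all features were not matched for brightness or glucose response, so setting the counts beside them does not show that the pattern recurs. OM+N replicate 1 lay far below the other OM+N arrays mainly among bright features, so its reading cannot show by itself that a fall with ammonium recurs.

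**Figure D4:**
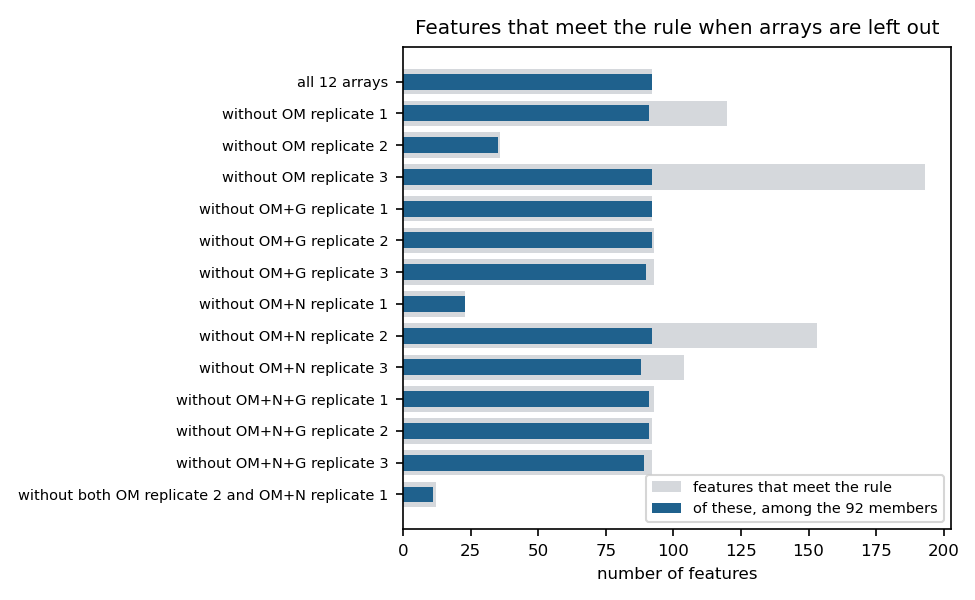
Number of features that meet the rule with all 12 arrays and with arrays left out (grey bars), and how many of these are among the 92 (blue bars). The grey bars stand at 36 without OM replicate 2, 23 without OM+N replicate 1 and 12 without both. Leaving out any array with glucose changes the grey bar by at most 1, and the blue bar then stays at 89 or more.

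The running numbers showed some neighbours. Within 2 of each other lay 8 pairs, which hold 16 of the 92 features. They are paxillus_14 and paxillus_16, paxillus_116 and paxillus_118, paxillus_281 and paxillus_283, paxillus_497 and paxillus_499, paxillus_2315 and paxillus_2317, paxillus_5129 and paxillus_5130, paxillus_8252 and paxillus_8254, and paxillus_12751 and paxillus_12752. paxillus_5129 and paxillus_5130 differed by at most 0.12 on any array, paxillus_116 and paxillus_118 by at most 0.16, and paxillus_2315 and paxillus_2317 by at most 0.18. paxillus_497 and paxillus_499 were up to 2.03 apart in level. In the first of these pairs the values were 12.56, 13.48 and 13.23 for paxillus_5129 in OM+N, and 12.59, 13.40 and 13.12 for paxillus_5130. What neighbouring numbers stand for is not explained in these sources, so such pairs may not be separate genes. Low numbers were frequent: 33 of the 92 (35.9%) had a number up to 2000, as did 1744 of all features (14.3%), which had a median level of 12.08.

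The threshold cut through a continuous range of dips. The last features inside were paxillus_497 (0.404), paxillus_116 (0.403) and paxillus_1069 (0.402), and the first outside were paxillus_458 (0.399), paxillus_1728 (0.397) and paxillus_2362 (0.397). Over the set the median dip was 0.51. Membership also depended on the normalization: after cyclic loess between arrays 43 of the 92 met the rule, with 69 features in all. Without the bounds on the glucose side, 256 features had a dip of at least 0.4, so 164 features with such a dip were left out because a mean with glucose lay 0.5 or more from OM.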

How the data were processed

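RNA of 4 groups of mycelium was hybridised to the 12 subarrays of a NimbleGen slide read in 1 colour. The authors summarised the probes into deposited log2 values with RMA, per the submitters' processing notes; the program behind it was not named there. RMA in its usual form makes the arrays' distributions equal, so changes are relative to other features. The files hold no detection calls. The log2 scale was inferred from the range of the values. The series table and the array files, which hold the same values for all 12215 features, were both read. The deposited count of probes per feature was used to describe the features; a deposited score of undefined meaning was not used. The number of arrays limits the precision.

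Features were chosen from group means by the rule given in the results, with the random control left out. With limma 3.58.1 in R 4.3.3 (lmFit, contrasts.fit, eBayes) the group means were modelled on all 12 arrays together, and p-values were adjusted by Benjamini-Hochberg over 12214 features in each contrast. Errors of differences are limma's standard errors (SE), and those of levels are SDs. The model and the rule were tested on simulated data. The simulated spread of each feature was normal and equal in the 4 groups. That check therefore did not cover a single far array or a larger spread in OM+N. Whether arrays stand for separate cultures is read from the design text, and p-values otherwise measure technical spread.

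The members, the lists and the alternatives were chosen with earlier results of these data known. Named features are the 12 with the largest dip, those next to the threshold, those with neighbouring numbers, the extremes of level, spread and gap, and up to 3 of each glucose shape. Features that remain when arrays are left out, and those called, were named after their values were seen. Same-numbered arrays did not deviate together in most cases: 4 of 18 correlations of deviations from group means exceeded 0.1 (range -0.31 to 0.51). Between OM and OM+N, however, they were 0.30 for number 1, 0.51 for number 2 and -0.21 for number 3. The numbers were not treated as pairs in the main fit.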

Additional observations from a re-analysis of the deposited data

Results flagged for a closer look

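In 5 of the 92 features the test of the difference between the ammonium changes with and without glucose passed limma's threshold. A positive difference passed it in 46 of all 12214 features (0.377%). The difference was 1.06 for paxillus_13579 (SE 0.16), 1.07 for paxillus_887 (SE 0.17), 1.04 for paxillus_8896 (SE 0.18), 0.96 for paxillus_1337 (SE 0.18) and 0.66 for paxillus_1487 (SE 0.14), all on the log2 scale. The rule chose features for this difference, so the values describe the choice and are no independent evidence. The test was repeated under 20 alternatives, which include the series table, whose identical values can only repeat the main fit. Under these 20 the test passed in all 20 for paxillus_13579 and paxillus_887 and in 15 for paxillus_8896. It passed in 11 for paxillus_1337 and in 8 for paxillus_1487, and the value stayed positive for each of the 5 features. Shares over all features under these alternatives are not given.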

How the results depend on the processing

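The number of features that meet the rule was 92 with the deposited values of either kind, 69 after cyclic loess between arrays and 103 with each array scaled to the 75th percentile. Of the 69, 43 (62.3%) were among the 92 (46.7% of these), and of the 103, 86 (83.5%) were (93.5%). It was 158 with a dip limit of 0.3, 49 with 0.5, 28 with a limit of 0.25 on the glucose side and 44 with group medians, of which 33 were among the 92. Leaving out single arrays gave 23 (without OM+N replicate 1) to 193 (without OM replicate 3), with 36 when OM replicate 2, 153 when OM+N replicate 2 and 12 when both OM+N replicate 1 and OM replicate 2 were dropped. The median OM+N minus OM of the 92 stayed negative throughout, from -0.70 to -0.32 when single arrays were left out and -0.20 without both.

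For limma's calls among the 92, leaving out single arrays gave 5 to 27 for OM+N minus OM (11 with all arrays), 10 to 63 for OM+G minus OM (32), 1 to 5 for OM+N+G minus OM+G (2), 2 to 8 for the interaction (5) and 83 to 91 for OM+N+G minus OM+N (89). Without both arrays the counts were 79 for OM+G minus OM, 9 for OM+N+G minus OM+G and 3 for the interaction. Array weights gave 27 for OM+N minus OM, 61 for OM+G minus OM, 4 for OM+N+G minus OM+G and 10 for the interaction. Fits to the arrays of a contrast alone gave 1, 61 and 11 for the first 3 of these. Without the dimmest 25% of features OM+N minus OM called 22, and cyclic loess gave 19 for OM+G minus OM and 4 for OM+N+G minus OM+G. The replicate block changed no count by over 1.5 times (13 for OM+N minus OM, 4 for the interaction). The cause of these differences was not tested. Counts over all features under these alternatives are not given, so no change in a count is read as particular to the 92.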
